A study of Mus musculus with 15 samples.

Results

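The 35 genes described here are mouse genes of protein folding in the endoplasmic reticulum (ER) and of the unfolded protein response, out of 41388 genes counted in A20 lymphoma cells. They were listed by function, as ER chaperones, translocation and degradation components and stress sensors, with earlier results of these data known. Of these genes, 4 encode the stress sensors and *Xbp1*, 5 the Hsp70, Hsp90 and lectin chaperones, 4 protein disulfide isomerases, 6 co-chaperones and soluble ER stress proteins, 8 components of ER-associated degradation and 8 subunits of translocation and signal peptide cleavage. All 35 passed the filter on low counts that left 13904 genes for testing.

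A20 is a B-cell lymphoma line of the BALB/c mouse strain. RNA was sequenced from A20 parental cells (genotype WT) and from 4 CRISPR/Cas9 clones that carry mutations in *Foxp1*, which encodes a forkhead transcription factor. Clones E6.1 and E6.2 were mutated in exon 6 and clones E7.1 and E7.2 in exon 7. Each line had 3 biological replicates taken at separate passages, 15 libraries in all, with total counts from 26328054 to 39181530. All 4 clones had been electroporated with a Cas9 and guide plasmid, sorted for GFP and grown out from single cells, so each is the progeny of 1 cell. The parental line is not described as having been through these steps. With 2 clones per exon, an effect of the exon mutated and a property that both clones share by chance cannot be told apart. The comparisons of the clones with A20 parental cells also share the same 3 parental libraries.

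The level of *Foxp1* RNA was 102, 166 and 147 TMM-normalized CPM (counts scaled to 1000000 per library) for A20 parental, 41.7, 64.2 and 64.3 for E7.1, 37.1, 39.6 and 52.3 for E7.2, 103, 99.5 and 109 for E6.1 and 109, 104 and 105 for E6.2. Both E7 clones lay below all other lines, with log2 fold changes against parental cells of -1.29 ± 0.20 (SE) for E7.1 and -1.69 ± 0.20 for E7.2 (adjusted p = 0.00688 and 0.00116, Benjamini-Hochberg adjusted over all genes, edgeR quasi-likelihood test). For E6.1 and E6.2 the log2 fold changes were -0.41 and -0.39, and neither passed the test (adjusted p = 0.765 and 0.417, same test). These RNA levels do not measure the protein. The paper reports a frameshift with an early stop codon in every clone, and loss of Foxp1 protein by Western blotting. By its account, E6 targeting removed the full-length protein and the largest short isoform, and E7 targeting removed all isoforms. The E7 and E6 clones are therefore not compared as depleted and undepleted cells.

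Markers of B cells were present in all libraries, with a sum over 6 genes of 2838 to 4305 normalized CPM, whereas the 4 T cell markers summed to at most 0.118 CPM and the 3 fibroblast markers to at most 0.225 CPM. The 3 macrophage markers summed to 0.421 to 7.74 CPM, mostly from *Adgre1*. Its mean was 3.83 CPM in A20 parental, 2.61 in E7.1, 2.56 in E7.2, 1.19 in E6.1 and 0.892 in E6.2. A list of 6 plasma cell genes summed to 878 to 1170.2 CPM in E6.2 and to 1421 to 2048 CPM in the other lines. Most of this sum came from *Jchain*, with a mean of 1024 CPM in E6.2 and 1511 to 1801 CPM in the other lines. Some libraries stood apart from the others of their line. In replicate 1 of E6.2 the single gene *Gm42418* took 10.3% of the counts, and in replicate 1 of A20 parental 2.22%, against at most 0.315% in the other libraries. In replicate 3 of E6.2 and replicate 3 of E7.2, *Eef1a1* took 3.03% and 3.64% of the counts, against at most 2.04% elsewhere. Mitochondrial genes took 10.4% of the counts in replicate 3 of E7.2 and 7.28% in replicate 1 of E6.2, against 0.848% to 5.82% in the other libraries, and replicate 3 of E7.2 had the lowest TMM factor (0.826). The part of these differences in the results below was not tested. Counts of called members are given with and without these libraries.

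The ER is where secreted and membrane proteins are threaded through the Sec61 channel, folded by chaperones and disulfide isomerases and, when folding fails, returned to the cytosol for degradation. The unfolded protein response matches this capacity to the load. Its sensors are Ire1 (encoded by *Ern1*), which splices *Xbp1* RNA, Atf6, which is cleaved to release a transcription factor, and Perk (encoded by *Eif2ak3*), which slows translation. B cells that become plasma cells enlarge their ER through Xbp1. The counts are per gene and so cannot separate spliced from unspliced *Xbp1* RNA, and in bulk RNA fewer cells expressing a gene and less RNA per cell cannot be told apart.

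A known feature of these genes is the ER stress element (ERSE), a promoter motif to which Atf6 binds together with NF-Y. It was searched on both strands as CCAAT, 9 bases of any kind and CCACG in the 300 bases from 250 before to 50 after each start in the RefSeq table (GRCm38.p6). Among the 35 genes, 28 had a promoter in this table. The element was found in 9 of these 28 (*Calr, Canx, Creld2, Derl3, Dnajc3, Hsp90b1, Hspa5, Pdia6* and *Syvn1*), against 0.119% of all 32851 promoters. The shorter ERSE-II (ATTGG, 1 base of any kind and CCACG) was found in *Dnajb11* and *Herpud1*, against 0.0365% of all promoters. The core of the Xbp1 element (TGACG followed directly by TGG), whose opposite strand begins with the same CCACG as the end of the ERSE, was in 0 of the 28 and in 0.676% of all promoters. The windows below are those of the 5 genes with an ERSE that differed between the E7 and E6 clones, where *Hsp90b1* has a pair of matches, followed by *Hspa5* and *Dnajc3*, which have the element but did not pass that test. They are written 5′ to 3′ on the strand of the gene, and capitals mark the element, which reads CGTGG to ATTGG where it lies on the opposite strand.
Derl3, chr10:75893222-75893280, plus strand, motif ending 137 bases before the start: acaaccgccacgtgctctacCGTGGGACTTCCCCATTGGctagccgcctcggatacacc
Pdia6, chr12:17266471-17266529, plus strand, motif ending 79 bases before the start: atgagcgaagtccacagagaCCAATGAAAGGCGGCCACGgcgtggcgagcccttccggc
Hsp90b1, chr10:86705513-86705571, minus strand, motif ending 88 bases before the start: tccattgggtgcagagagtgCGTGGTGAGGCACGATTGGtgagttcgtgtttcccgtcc
Hsp90b1, chr10:86705618-86705676, minus strand, motif ending 193 bases before the start: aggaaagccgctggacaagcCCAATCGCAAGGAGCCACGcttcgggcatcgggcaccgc
Calr, chr8:84847055-84847113, minus strand, motif ending 143 bases before the start: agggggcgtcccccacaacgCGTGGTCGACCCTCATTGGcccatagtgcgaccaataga
Creld2, chr15:88819500-88819558, plus strand, motif ending 107 bases before the start: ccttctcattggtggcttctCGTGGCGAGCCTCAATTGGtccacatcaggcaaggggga
Hspa5, chr2:34772020-34772048, plus strand, motif ending 46 bases before the start: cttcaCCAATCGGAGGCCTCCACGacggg
Dnajc3, chr14:118937807-118937865, plus strand, motif ending 86 bases before the start: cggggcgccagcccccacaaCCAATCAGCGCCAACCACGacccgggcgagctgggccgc

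In A20 parental cells the 35 genes covered a wide range of levels. Divided by exon length, the level was highest for the calcium-binding lectin chaperone *Canx* (178 normalized CPM per kb, above 97.9% of all genes tested), followed by *Pdia3* at 165, *Hspa5* at 159 and *Calr* at 156 CPM per kb. These genes encode the lectin-associated disulfide isomerase ERp57, the Hsp70 chaperone BiP and the soluble lectin calreticulin. The lowest were *Eif2ak3* at 4.70, *Ern1* at 4.39 and *Derl3* at 0.972 CPM per kb, the last above only 22.5% of the genes tested. *Xbp1* stood at 60.9 and *Atf6* at 23.3 CPM per kb. Per exon length, the 3 sensor genes thus stood below each of these 4 chaperone and isomerase genes.

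None of the 35 genes passed the test in any single clone against A20 parental cells (adjusted p under 0.05, edgeR). Among all genes tested, 1.22% passed in E7.1, 0.295% in E7.2, 0.324% in E6.1 and 1.17% in E6.2. At an unadjusted p under 0.05 the counts were 1 of 35 in E6.1 and 1 of 35 in E6.2, against 6.71% and 13.1% of all genes. They were 19 of 35 in E7.1 and 10 of 35 in E7.2, against 20% and 13.3% of all genes. DESeq2 called 10 members in E7.1, where it called 8.32% of all genes, and 0 in E7.2, E6.1 and E6.2, where it called 1.83%, 1.11% and 2.86%. The median log2 fold change over the 35 genes was 0.26 in E7.1, 0.32 in E7.2, -0.038 in E6.1 and -0.015 in E6.2, beside medians over all genes of -0.025, 0.0043, -0.00081 and 0.059.

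The libraries of both E7 clones lay apart from parental cells for many members. All 3 E7.1 libraries were above all 3 parental libraries for 16 of the 35 genes and below them for 6, against 16.4% and 15.6% of all genes. In E7.2 the counts were 13 above and 4 below, against 10.8% and 13.3%. For E6.1 they were 2 above and 3 below, against 11.3% and 11.2%, and for E6.2 they were 2 above and 2 below, against 6.13% and 8.61%. Without replicate 3 of both E6.2 and E7.2, 18 of the 35 genes were called in E7.1 against parental cells, 15 higher and 3 lower, when 15.2% of all genes were called (8.80% higher and 6.36% lower). The genes higher were *Hspa5, Hyou1, Hsp90b1, Calr, Pdia3, Pdia4, Pdia6, Dnajb11, Sdf2l1, Manf, Creld2, Edem1, Derl3, Sec61b* and *Ssr2*, and those lower were *Ern1, Atf6* and *Sel1l*. In E7.2, E6.1 and E6.2 this fit called 0, against 1.53%, 0.924% and 2.26% of all genes.

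Members of the list passed the test mainly between the exon 7 and the exon 6 clones. In the comparison of E7.1 and E7.2 together with E6.1 and E6.2 together, 13 of the 35 genes passed the test, 10 higher and 3 lower in the E7 clones, against 12.1% of all genes tested (6.21% higher and 5.85% lower). The genes higher in the E7 clones were *Derl3, Sdf2l1, Pdia6, Hsp90b1, Calr, Pdia3, Manf, Creld2, Edem1* and *Dnajb11*, and those lower were *Ern1, Derl1* and *Atf6*. All 6 E7 libraries were above all 6 E6 libraries for *Pdia6, Sdf2l1, Manf* and *Derl3*, and below them for *Atf6* and *Derl1*, against 1.81% and 1.75% of all genes. Single libraries moved this count. It was 3 without replicate 1 or 3 of E6.1, when 2.77% and 3.00% of all genes were called. Without replicate 2 of E6.2, replicate 1 of E7.1 or replicate 2 of E7.2 it was 6 (7.47%, 5.44% and 4.01%). Without replicate 1 of E6.2 or of E7.2 it was 7 (7.62% and 4.60%), and without replicate 2 or 3 of A20 parental 8 (8.68% and 9.03%). The count was 9 without replicate 2 of E6.1 or replicate 2 or 3 of E7.1 (10.7%, 6.90% and 6.06%). It was 10 without replicate 3 of E7.2 (17.7%), 13 without replicate 1 of A20 parental (13.7%) and 18 without replicate 3 of E6.2 (26.8%). Without replicate 3 of both E6.2 and E7.2 the count was 20 of 35, 16 higher and 4 lower, when 33.1% of all genes were called (18.5% higher and 14.7% lower). The 7 genes added were *Xbp1, Canx, Pdia4, P4hb, Sec61b* and *Sec61g*, higher, and *Sel1l*, lower, with log2 differences of 0.32, 0.40, 0.79, 0.43, 0.44, 0.35 and -0.62. In a test for any difference among the 5 lines, 4 of the 35 genes passed (*Derl3, Sdf2l1, Manf* and *Edem1*, adjusted p = 0.0213, 0.0250, 0.0420 and 0.0460, edgeR), against 6.28% of all genes. This count was 0 without replicate 3 of E6.1, when 2.49% of all genes were called. It was 1 without replicate 1 of E6.1 or of E7.1 (2.74% and 2.72%). With a replicate block it was 2 (5.23%), as without any 1 of 9 other libraries (2.45% to 5.52%). It rose to 8 without replicate 1 of A20 parental (9.55%), 14 without replicate 3 of E6.2 (20.2%) and 7 without replicate 3 of E7.2 (11.7%).

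**Figure D1:**
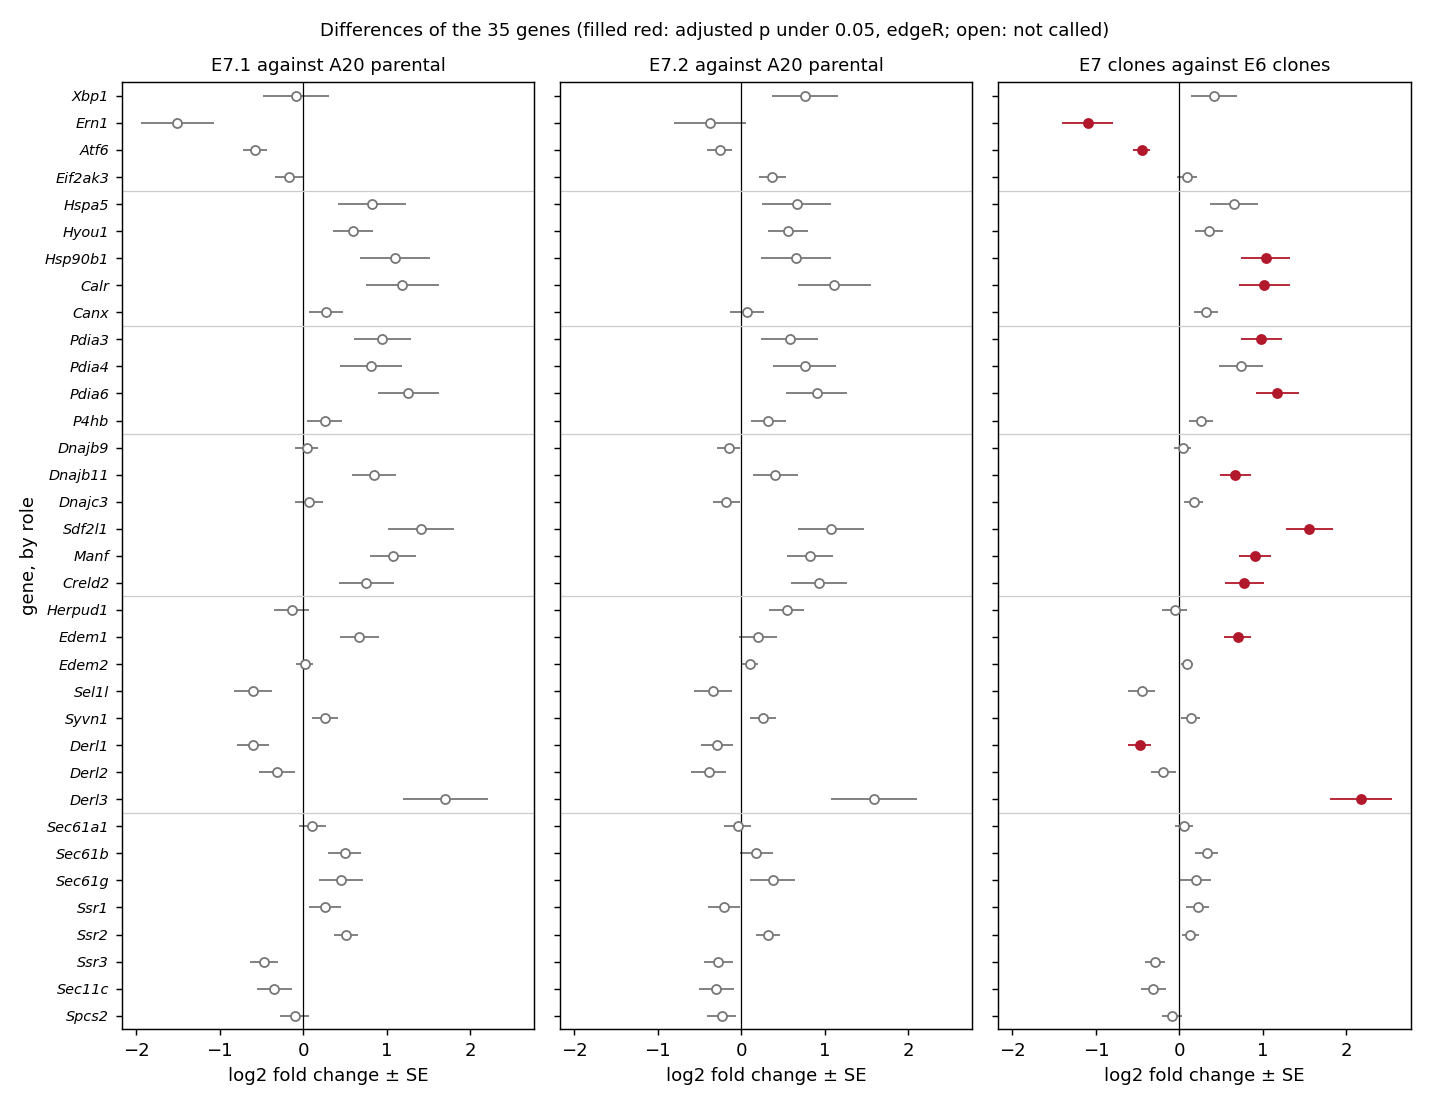
Log2 fold change with its SE (horizontal axis) of each of the 35 genes (vertical axis, grouped by role) in E7.1 against A20 parental, E7.2 against A20 parental and the E7 against the E6 clones, where filled red points passed an adjusted p under 0.05. No point is filled in the panels against parental cells, and 13 are filled in the comparison of the E7 with the E6 clones, with *Derl3* farthest to the right at 2.17 and *Ern1* farthest to the left at -1.10.

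Among the 3 sensor genes and *Xbp1*, *Ern1* and *Atf6* were lower in the E7 than in the E6 clones, whereas *Eif2ak3* and *Xbp1* did not pass the test. *Ern1* (ENSMUSG00000020715, chromosome 11 from 106394650 to 106487852 of GRCm38), which encodes the kinase and ribonuclease Ire1, was measured at 15.7, 48.9 and 43.2 normalized CPM for A20 parental, 12.1, 13.7 and 12.1 for E7.1, 16.3, 19.4 and 47.3 for E7.2, 44.9, 24.04 and 35.4 for E6.1 and 64.2, 37.4 and 36.7 for E6.2. All 3 E7.1 libraries and replicates 1 and 2 of E7.2 were below every E6 library, but replicate 3 of E7.2 lay among the E6 values, and replicate 1 of A20 parental lay at the E7 level. The log2 fold change of the E7 against the E6 clones was -1.10 ± 0.31 (SE, adjusted p = 0.0356, edgeR), which is 0.467 times the E6 level. It was called in 14 of 23 alternative analyses. Leaving out any 1 of 9 libraries ended the call (adjusted p from 0.0507 to 0.105), which was kept without replicate 1, 2 or 3 of A20 parental, replicate 2 of E6.1, replicate 3 of E6.2 or replicate 3 of E7.2. Without replicate 3 of both E6.2 and E7.2 it was -1.45 (adjusted p = 0.00319). In E7.1 against parental cells it was -1.51 ± 0.44 (adjusted p = 0.0868), and without replicate 1 of A20 parental this became -1.85 (adjusted p = 0.0195).

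*Atf6* (ENSMUSG00000026663, chromosome 1 from 170704674 to 170867771), the sensor that is cleaved in the Golgi, was measured at 167, 246 and 233 normalized CPM for A20 parental, 130.1, 154 and 149 for E7.1, 184, 187 and 169 for E7.2, 242, 211 and 229 for E6.1 and 225, 227 and 189.9 for E6.2. Its E7 and E6 values did not overlap, and replicate 1 of A20 parental lay below the other parental libraries, near the level of E7.2. The difference was -0.45 ± 0.10 on the log2 scale (adjusted p = 0.0181, edgeR), and *Atf6* was called in 21 of 23 alternative analyses. Leaving out replicate 1 or 3 of E6.1 ended the call (adjusted p from 0.0563 to 0.0643). *Eif2ak3* (ENSMUSG00000031668, chromosome 6 from 70844515 to 70905245), which encodes Perk, was measured at 21.7, 28.2 and 26.7 normalized CPM for A20 parental, 23.9, 20.3 and 24.04 for E7.1, 27.7, 30.02 and 41.6 for E7.2, 25.3, 27.9 and 29.4 for E6.1 and 22.7, 22.8 and 26.9 for E6.2. All 3 libraries of E7.2 were above those of E7.1 and of E6.2, and those of E6.1 were above those of E7.1, so that the clones did not separate by exon. The log2 difference of the E7 and E6 clones was 0.089 ± 0.12 (adjusted p = 0.645).

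*Xbp1* (ENSMUSG00000020484, chromosome 11 from 5520659 to 5525893), which encodes the transcription factor made after Ire1 splicing, was measured at 202, 170.4 and 221 normalized CPM for A20 parental, 172, 192 and 194 for E7.1, 203, 193 and 611 for E7.2, 142, 173 and 147 for E6.1 and 148, 172 and 366 for E6.2. Replicates 3 of E7.2 and of E6.2 were the highest of the 15 libraries, and the rest lay between 142 and 221 CPM. The log2 difference was 0.41 ± 0.28 with all libraries (adjusted p = 0.332, edgeR) and 0.32 (adjusted p = 0.0258) without those replicates. Between the exon 7 clones, the log2 difference of E7.2 from E7.1 was 0.85 for *Xbp1*, 1.13 for *Ern1*, 0.32 for *Atf6* and 0.54 for *Eif2ak3*, none of which passed the adjusted threshold. Without replicate 3 of E7.2 these differences were 0.099, 0.51, 0.37 and 0.35. No member passed the adjusted threshold between E7.2 and E7.1 or between E6.2 and E6.1, against 0.590% and 1.24% of all genes. At an unadjusted p under 0.05 the counts were 6 and 0, against 13.3% and 12.9%, and DESeq2 called 0 in both, against 2.06% and 3.22%.

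**Figure D2:**
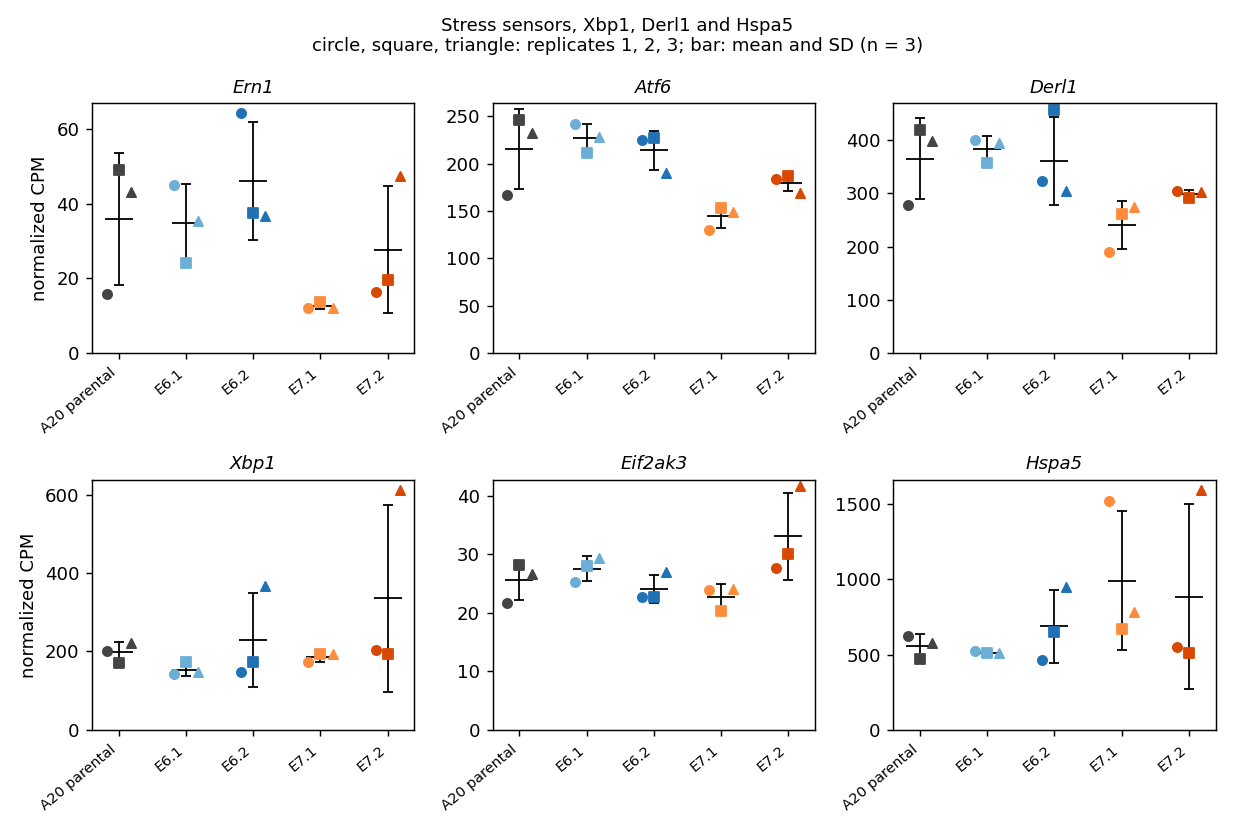
Normalized CPM (vertical axis, from 0) of *Ern1, Atf6, Derl1, Xbp1, Eif2ak3* and *Hspa5* in the 5 lines (horizontal axis), with 1 symbol per replicate and bars for mean and SD (n = 3). All 3 libraries of E7.1 and replicates 1 and 2 of E7.2 are low for *Ern1*, and replicate 3 of E7.2 is the highest library for *Xbp1* and *Hspa5*.

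The Hsp70, Hsp90 and lectin chaperones had higher means in both E7 clones than in parental cells and in the E6 clones, but only *Hsp90b1* and *Calr* of the 5 passed the test between the E7 and E6 clones. *Hsp90b1* (ENSMUSG00000020048, chromosome 10 from 86690209 to 86705509), which encodes the ER Hsp90 Grp94, was measured at 505, 290.1 and 339.6 normalized CPM for A20 parental, 1373, 491 and 565 for E7.1, 449, 414 and 926 for E7.2, 289.6, 334 and 296 for E6.1 and 235, 336 and 556 for E6.2. Replicate 1 of E7.1 stood far above the rest, and replicate 3 of E6.2 overlapped the E7 values. The E7 level was 2.05 times the E6 level (log2 1.03 ± 0.30 SE, adjusted p = 0.0393, edgeR), and the gene was called in 11 of 23 alternative analyses. The call was lost with any 1 of 11 libraries left out (adjusted p from 0.0508 to 0.103), and kept without replicate 1 of A20 parental, replicate 3 of E6.2 or replicate 2 or 3 of E7.1. Without replicate 1 of E7.1 the log2 difference was 0.73.

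*Calr* (ENSMUSG00000003814, chromosome 8 from 84841850 to 84846934), the soluble lectin chaperone calreticulin, was measured at 569, 357 and 421 normalized CPM for A20 parental, 1464, 777 and 828 for E7.1, 654, 623 and 1640.0 for E7.2, 388, 525 and 399 for E6.1 and 308, 420.0 and 930.4 for E6.2. Its highest libraries were replicate 3 of E7.2 and replicate 1 of E7.1, and again replicate 3 of E6.2 lay among the E7 values. The difference was 1.02 ± 0.31 on the log2 scale (adjusted p = 0.0464, edgeR), and it was called in 9 of 23 alternative analyses. Removing any 1 of 13 libraries ended the call (adjusted p from 0.0559 to 0.121), and it was kept without replicate 1 of A20 parental or replicate 3 of E6.2. *Hspa5* (ENSMUSG00000026864, chromosome 2 from 34771970 to 34776531), which encodes BiP, the most general ER chaperone and a regulator of the sensors, was measured at 624, 472 and 578 normalized CPM for A20 parental, 1519.7, 669 and 780.3 for E7.1, 552, 509.7 and 1590.4 for E7.2, 521, 508 and 512 for E6.1 and 464, 647 and 949 for E6.2. Replicates 1 and 2 of E7.2 did not exceed the parental range, whereas its replicate 3 was the highest of all. The log2 difference of 0.66 ± 0.29 did not pass the test (adjusted p = 0.146).

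*Hyou1* (ENSMUSG00000032115, chromosome 9 from 44379490 to 44392369), whose product recharges BiP with nucleotide, was measured at 134, 125 and 123 normalized CPM for A20 parental, 256, 162 and 158 for E7.1, 144, 155 and 265 for E7.2, 149, 130.2 and 125 for E6.1 and 148, 141 and 203 for E6.2. All 6 E7 libraries were above the parental ones, but replicate 3 of E6.2 lay among the E7 values. The log2 difference of the E7 and E6 clones was 0.36 ± 0.17 (adjusted p = 0.168, edgeR). Both *Hyou1* and *Hspa5* passed in E7.1 against parental cells without replicate 3 of both E6.2 and E7.2, at 0.62 and 0.84 (adjusted p = 0.0213 and 0.0396). *Canx*, the membrane-bound lectin chaperone, differed by 0.32 ± 0.14 (adjusted p = 0.150), and of the 5 chaperones of this kind it had the smallest log2 difference.

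The protein disulfide isomerases form and rearrange disulfide bonds in folding proteins. *Pdia6* and *Pdia3* passed the test between the E7 and E6 clones, and *Pdia4* and *P4hb* did not. *Pdia6* (ENSMUSG00000020571, chromosome 12 from 17266545 to 17284770) was measured at 199, 112 and 115 normalized CPM for A20 parental, 506, 258 and 256 for E7.1, 228, 235 and 335 for E7.2, 112, 177 and 124 for E6.1 and 78.5, 107 and 201 for E6.2. Each E7 library was above each E6 library and above each parental library, although replicate 3 of E6.2 and replicate 1 of A20 parental came close. The E7 level was 2.25 times the E6 level (log2 1.17 ± 0.26 SE, adjusted p = 0.0146, edgeR), and the gene was called in 21 of 23 alternative analyses. Without replicate 1 or 3 of E6.1 the call was lost (adjusted p from 0.0514 to 0.0530). *Pdia3* (ENSMUSG00000027248, chromosome 2 from 121413775 to 121438687) was measured at 702, 389.6 and 466 normalized CPM for A20 parental, 1435, 763 and 811 for E7.1, 669, 601 and 1062 for E7.2, 369.8, 536 and 441 for E6.1 and 284, 404 and 645 for E6.2. Here replicate 2 of E7.2 fell below replicate 3 of E6.2, and the log2 difference was 0.98 ± 0.24 (adjusted p = 0.0226, edgeR), called in 19 of 23 alternative analyses. Without replicate 1 or 3 of E6.1, replicate 2 of E6.2 or replicate 1 of E7.1 the call was lost (adjusted p from 0.0502 to 0.0759). *Pdia4* differed by 0.74 ± 0.26 (adjusted p = 0.0781) and *P4hb*, the classical disulfide isomerase, by 0.26 ± 0.15 (adjusted p = 0.240). In the annotation *Pdia3* and *Pdia6* overlap other coding genes, and pairs that touched both genes were left out of the counts.

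Of the 6 co-chaperones and soluble ER stress proteins, *Sdf2l1*, *Manf*, *Creld2* and *Dnajb11* were higher in the E7 clones, and *Dnajb9* and *Dnajc3* did not pass the test. *Sdf2l1* (ENSMUSG00000022769, chromosome 16 from 17130138 to 17132383), an ER protein that works in a complex with the co-chaperone encoded by *Dnajb11*, was measured at 33.02, 14.3 and 13.7 normalized CPM for A20 parental, 80.1, 40.3 and 42.00 for E7.1, 37.3, 37.3 and 53.9 for E7.2, 13.99, 28.4 and 15.96 for E6.1 and 8.90, 14.7 and 17.8 for E6.2. All 6 E7 libraries were above all 9 other libraries, and the highest parental library, replicate 1, lay at more than 2 times the level of the other parental libraries. Group means were 20.4 ± 10.96 CPM (SD, n = 3) in parental cells, 54.1 ± 22.5 in E7.1, 42.8 ± 9.57 in E7.2, 19.4 ± 7.79 in E6.1 and 13.8 ± 4.53 in E6.2. The E7 level was 2.94 times the E6 level (log2 1.55 ± 0.28 SE, adjusted p = 0.00633, edgeR), and *Sdf2l1* was called in 23 of 23 alternative analyses. Against parental cells the log2 fold changes were 1.41 ± 0.40 for E7.1 and 1.07 ± 0.39 for E7.2 (adjusted p = 0.0774 and 0.295). Without replicate 1 of A20 parental the E7.1 value was 1.96 (adjusted p = 0.0150).

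*Manf* (ENSMUSG00000032575, chromosome 9 from 106838312 to 106891979), a small ER protein that is secreted under stress, was measured at 78.4, 58.2 and 67.7 normalized CPM for A20 parental, 207, 116 and 108 for E7.1, 98.7, 96.7 and 166 for E7.2, 68.4, 81.4 and 64.6 for E6.1 and 53.4, 63.8 and 90.00 for E6.2. Its E7 and E6 libraries did not overlap, and its parental and E6 levels lay in the same range. The difference was 0.90 ± 0.20 on the log2 scale (adjusted p = 0.0135, edgeR), called in 23 of 23 alternative analyses. *Manf* overlaps the coding genes *Dcaf1* and *Rbm15b* in the annotation.

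*Dnajb11* (ENSMUSG00000004460, chromosome 16 from 22857845 to 22879634), a co-chaperone of BiP, was measured at 58.1, 52.1 and 52.9 normalized CPM for A20 parental, 150.4, 68.7 and 74.8 for E7.1, 62.9, 64.5 and 89.2 for E7.2, 47.6, 58.5 and 54.5 for E6.1 and 38.97, 49.9 and 67.4 for E6.2. Replicate 1 of E7.1 was the highest library by a wide margin, and replicate 3 of E6.2 overlapped the E7 clones. The log2 difference was 0.67 ± 0.19 (adjusted p = 0.0372, edgeR), called in 12 of 23 alternative analyses. Removing any 1 of 9 libraries ended the call (adjusted p from 0.0511 to 0.105), and it was kept without replicate 1 of A20 parental, replicate 2 of E6.1, replicate 3 of E6.2, replicate 2 or 3 of E7.1 or replicate 3 of E7.2. *Creld2* (ENSMUSG00000023272, chromosome 15 from 88819646 to 88826681), a stress-inducible ER protein, was measured at 28.9, 21.1 and 23.7 normalized CPM for A20 parental, 59.8, 33.5 and 31.3 for E7.1, 33.5, 35.5 and 71.8 for E7.2, 25.5, 25.8 and 22.1 for E6.1 and 18.7, 23.01 and 39.2 for E6.2. It was highest in replicate 3 of E7.2 and differed by 0.78 ± 0.23 (adjusted p = 0.0462, edgeR), but was called in only 8 of 23 alternative analyses. The call was lost with any 1 of 13 libraries left out (adjusted p from 0.0529 to 0.120), and kept without replicate 1 of A20 parental or replicate 3 of E6.2. *Dnajb9* and *Dnajc3*, both co-chaperones of BiP, differed by 0.041 ± 0.10 and 0.17 ± 0.12 (adjusted p = 0.820 and 0.337). *Dnajc3* is among the genes with an ERSE match, and *Dnajb9* is not.

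**Figure D3:**
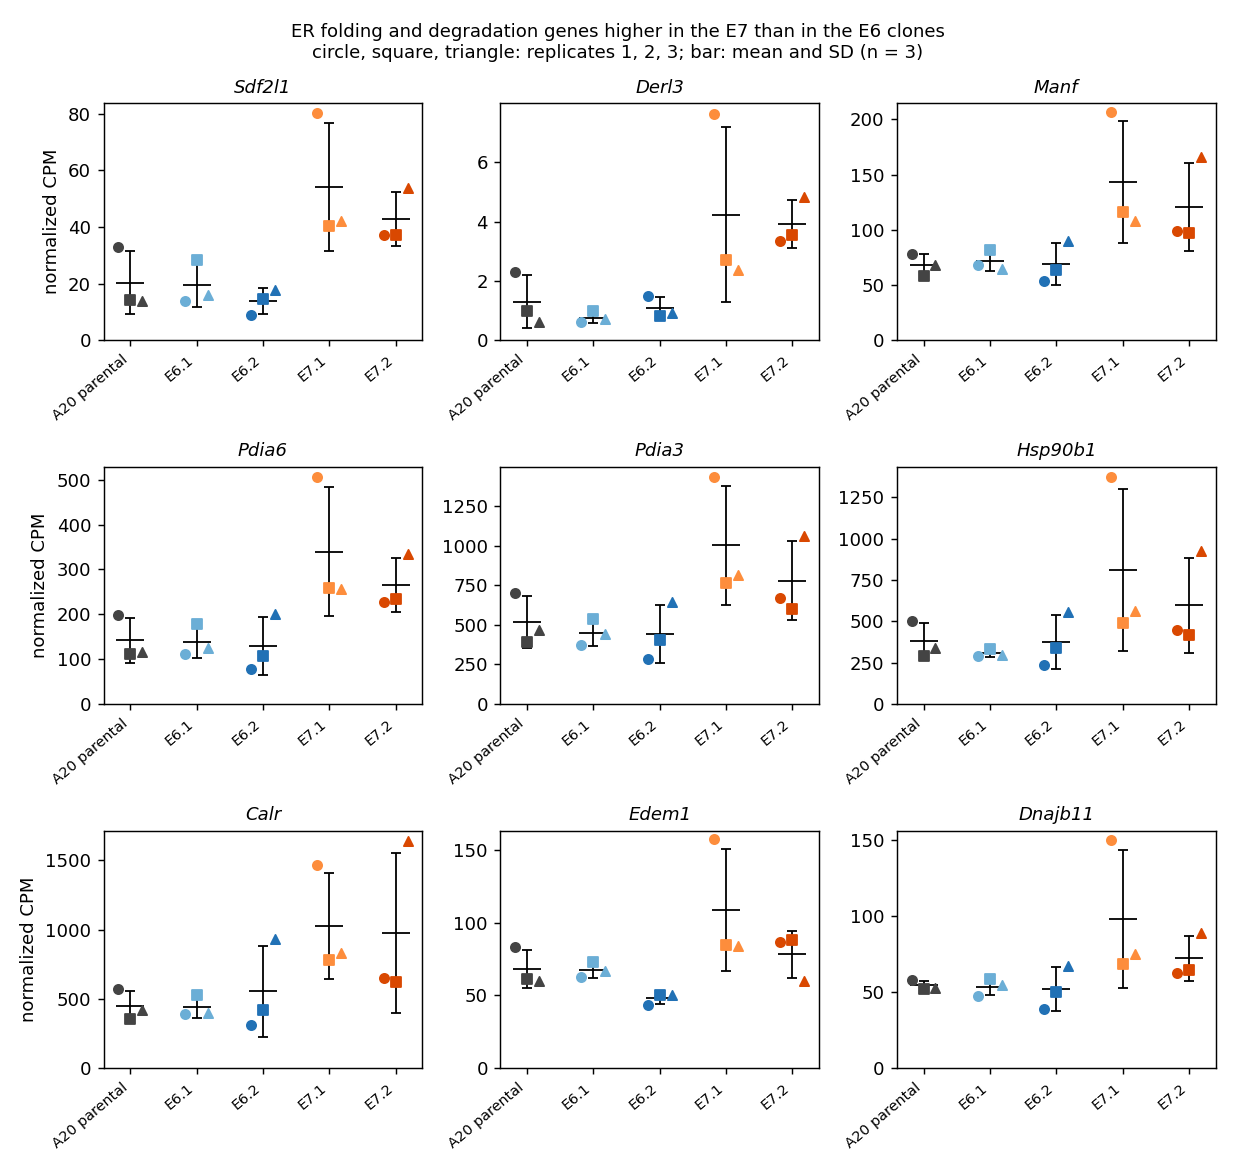
Normalized CPM (vertical axis, from 0) of 9 ER folding and degradation genes in the 5 lines (horizontal axis), with 1 symbol per replicate and bars for mean and SD (n = 3). The 6 libraries of E7.1 and E7.2 lie above all E6 libraries for *Sdf2l1, Derl3, Manf* and *Pdia6*, replicate 1 of E7.1 is the highest library for 8 of the 9 genes, and replicate 3 of E7.2 for *Calr*.

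In ER-associated degradation the members moved in both directions. *Derl3* and *Edem1* were higher and *Derl1* lower in the E7 clones, and the other 5 did not pass the test. *Derl3* (ENSMUSG00000009092, chromosome 10 from 75893398 to 75895941), a derlin of the membrane complex that extracts misfolded proteins, was the lowest of the 35 genes per exon length. It was measured at 2.30, 0.988 and 0.611 normalized CPM for A20 parental, 7.63, 2.71 and 2.36 for E7.1, 3.35, 3.55 and 4.84 for E7.2, 0.603, 0.981 and 0.701 for E6.1 and 1.496, 0.816 and 0.902 for E6.2, from 19 to 285 counts per library. All 6 E7 libraries were above all 9 other libraries, although replicate 1 of A20 parental lay just below the lowest of them. The E7 level was 4.51 times the E6 level (log2 2.17 ± 0.37 SE, adjusted p = 0.00474, edgeR), the largest difference among the 35 genes, and it was called in 23 of 23 alternative analyses. Against parental cells it was 1.70 ± 0.51 for E7.1 and 1.59 ± 0.51 for E7.2 (adjusted p = 0.0914 and 0.245).

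*Derl1* (ENSMUSG00000022365, chromosome 15 from 57869502 to 57892418), another derlin, was measured at 279, 419 and 397 normalized CPM for A20 parental, 189, 260.4 and 273 for E7.1, 304, 291 and 302 for E7.2, 399.6, 357 and 395 for E6.1 and 324, 455 and 304 for E6.2. Its E7 libraries were all below the E6 libraries by a narrow margin, and replicate 1 of A20 parental was below the other parental libraries. The difference was -0.47 ± 0.14 (adjusted p = 0.0412, edgeR), called in 9 of 23 alternative analyses. Leaving out any 1 of 13 libraries ended the call (adjusted p from 0.0530 to 0.110), which was kept without replicate 1 of A20 parental or replicate 3 of E6.2. *Derl2*, the third derlin, differed by -0.19 ± 0.15 (adjusted p = 0.403). Thus 1 derlin was higher, 1 was lower and 1 did not pass the test.

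*Edem1* (ENSMUSG00000030104, chromosome 6 from 108828641 to 108859356), whose product marks misfolded glycoproteins for degradation, was measured at 83.2, 60.8 and 59.98 normalized CPM for A20 parental, 157, 84.5 and 84.1 for E7.1, 86.5, 88.1 and 59.7 for E7.2, 62.4, 72.5 and 66.6 for E6.1 and 43.2, 50.1 and 49.9 for E6.2. Replicate 3 of E7.2 was the exception among the E7 libraries, with a level inside the E6 range. The log2 difference was 0.70 ± 0.16 (adjusted p = 0.0182, edgeR), called in 20 of 23 alternative analyses. Leaving out replicate 1 or 3 of E6.1 or replicate 2 of E7.2 ended the call (adjusted p from 0.0540 to 0.0615). *Edem2*, a related mannosidase, ranged only from 41.5 to 53.1 CPM over the 15 libraries, with a log2 difference of 0.094 ± 0.073. Among the members of the Hrd1 ubiquitin ligase complex, *Sel1l* differed by -0.45 ± 0.16 (adjusted p = 0.0801), *Syvn1* by 0.14 ± 0.11 and *Herpud1* by -0.056 ± 0.15. For *Sel1l*, replicates 1 and 2 of E7.2 and all of E7.1 lay below every E6 library, and replicate 3 of E7.2 lay above them. Without replicate 3 of both E6.2 and E7.2, *Sel1l* passed with -0.62 (adjusted p = 0.00336).

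None of the 8 genes of translocation and signal peptide cleavage passed the edgeR quasi-likelihood test in any comparison with all libraries. Also with all libraries, *Ssr2* was called in E7.1 against parental cells by DESeq2 and by edgeR's likelihood ratio test. These called 8.32% and 5.38% of all genes there. DESeq2 called *Ssr2* among the 5 lines as well, with 22.5% of all genes. Without replicate 3 of both E6.2 and E7.2, *Sec61b* and *Sec61g* passed between the E7 and E6 clones (adjusted p = 0.0115 and 0.0498), and *Sec61b* and *Ssr2* passed in E7.1 against parental cells (adjusted p = 0.0296 and 0.0159). Without replicate 1 of both A20 parental and E6.2, *Ssr3* passed as lower in the E7 clones and in E7.1 against parental cells. In that fit it also passed among the 5 lines. The shares of all genes called there were 11.3%, 8.83% and 8.95%. Log2 differences of the E7 and E6 clones ran from -0.31 for *Sec11c*, a catalytic subunit of signal peptidase, to 0.33 for *Sec61b*, a small subunit of the Sec61 channel. With all libraries, the smallest adjusted p of this comparison was 0.127, for *Ssr3* of the translocon-associated complex (-0.29 ± 0.12, edgeR). *Sec61a1*, which encodes the channel pore, differed by 0.057 ± 0.11, *Sec61g* by 0.20 ± 0.19, *Ssr1* by 0.22 ± 0.13, *Ssr2* by 0.13 ± 0.10 and *Spcs2* by -0.084 ± 0.12. *Ssr2* (ENSMUSG00000041355, chromosome 3 from 88579671 to 88588397) was measured at 98.2, 96.6 and 105 normalized CPM for A20 parental, 177, 129 and 121 for E7.1, 134, 132 and 107 for E7.2, 138, 125 and 126 for E6.1 and 111, 115 and 114 for E6.2. All 12 clone libraries of *Ssr2* were above the 3 parental libraries, with log2 fold changes of 0.51 ± 0.14 in E7.1, 0.32 ± 0.14 in E7.2, 0.38 ± 0.14 in E6.1 and 0.19 ± 0.14 in E6.2, none of which passed the test (adjusted p = 0.0766, 0.365, 0.562 and 0.593).

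**Figure D4:**
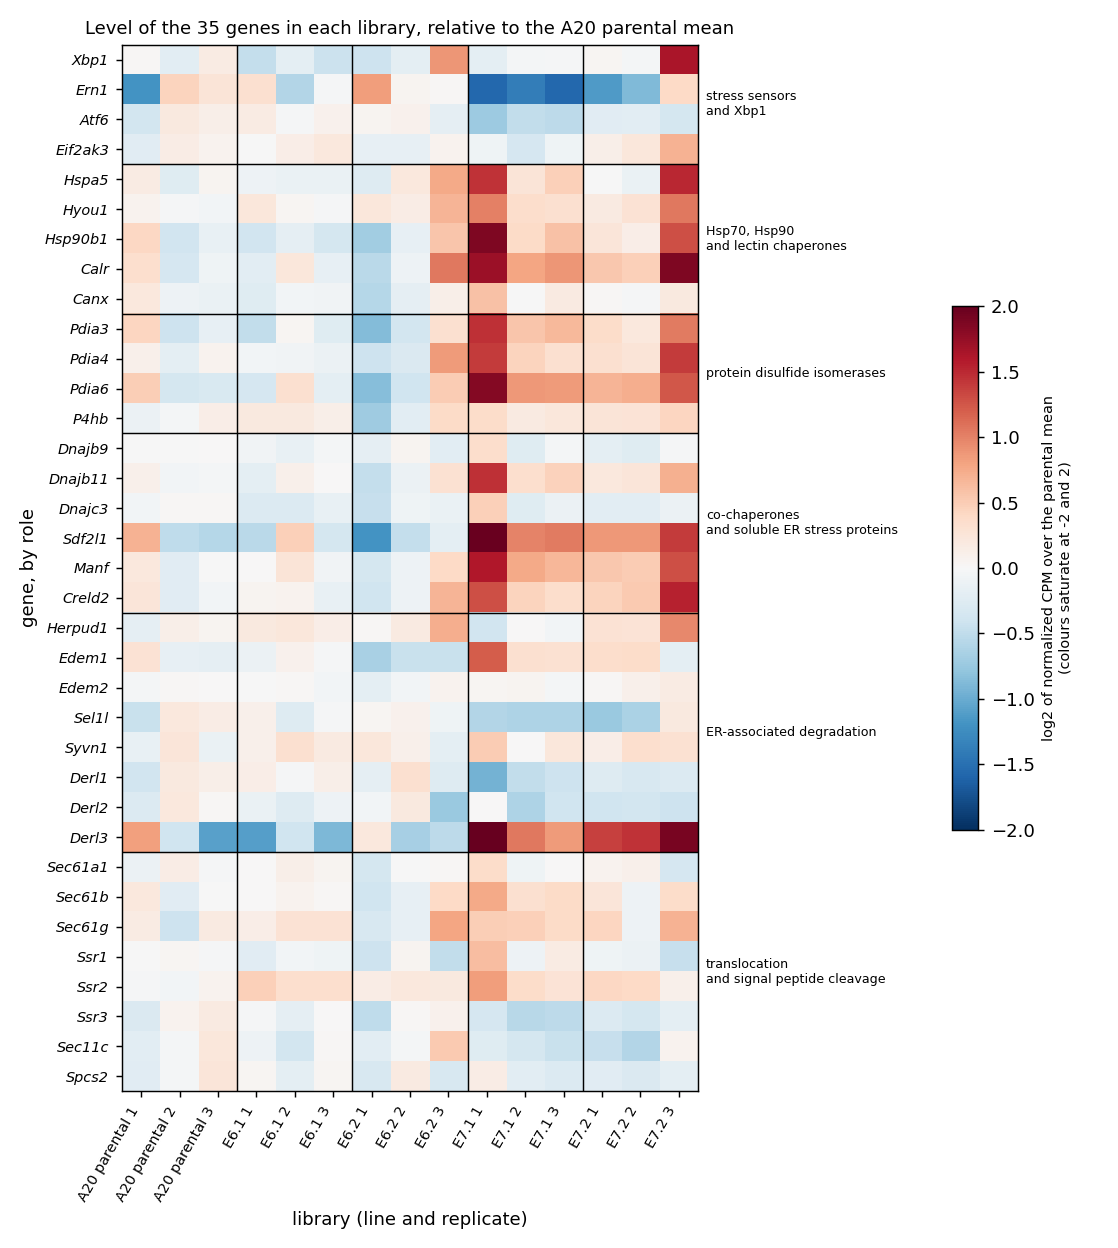
Log2 of the normalized CPM of each of the 35 genes (rows, by role) in each of the 15 libraries (columns) over the mean of the A20 parental libraries, where red is higher and blue lower and colours saturate at -2 and 2. Replicate 1 of E7.1 and replicate 3 of E7.2 are the reddest columns for chaperones and disulfide isomerases, and the *Ern1, Sel1l* and *Derl1* rows are blue in E7.1 and in replicates 1 and 2 of E7.2.

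Within the lines, single libraries carried much of the spread of these genes. Replicate 1 of E7.1 was the highest of its line for 28 of the 35 genes and replicate 3 of E7.2 for 27, whereas replicate 1 of E6.2 was the lowest of its line for 24. How many of all genes were highest or lowest in these libraries was not counted, so this need not be particular to the 35 genes. The 35 genes together took 1.22% of the counts in replicate 1 of E7.1 and 0.950% in replicate 3 of E7.2, against 0.513% in replicate 1 of E6.2 and 0.674% to 0.820% in the other 12 libraries. In each of the 5 lines, the library with the highest *Sdf2l1* was also the highest for *Hsp90b1, Calr, Canx, Pdia3, Pdia6, Dnajb11, Manf, Creld2* and *Sec61b*. Among all genes tested, 2.32% followed *Sdf2l1* in this way in all 5 lines. Only 1 of the 35 genes, *Atf6*, was the lowest of its line in that same library in all 5 lines. This is close to the 2.44% of all genes for which it held. The libraries concerned were replicate 1 of A20 parental, replicate 2 of E6.1, replicate 3 of E6.2, replicate 1 of E7.1 and replicate 3 of E7.2, which include some of those that stood apart in *Gm42418* or *Eef1a1*. The values of a library share its depth and normalization, so that the pattern is a description and was not tested.

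By promoter, the 11 genes with an ERSE or ERSE-II and the 17 with neither differed in their medians in the E7 clones. The median log2 fold change of the 11 genes was 0.83 for E7.1 and 0.66 for E7.2 against parental cells and 0.67 between the E7 and E6 clones, where 6 of the 11 passed the test. For the 17 genes the medians were 0.042, 0.18 and 0.20, and 4 of the 17 passed, *Sdf2l1*, *Pdia3* and *Edem1* higher and *Ern1* lower. In E6.1 and E6.2 the medians were -0.040 and -0.010 with the element and -0.053 and -0.11 without it. Of the 7 genes whose start was not in the table (*Sec11c, Hyou1, Derl1, Atf6, Manf, Ssr2* and *Sec61a1*), *Manf* was higher and *Derl1* and *Atf6* were lower in the E7 clones. A match is no evidence of binding, and genes of this list are not replicates, so the medians are given without a test.

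**Figure D5:**
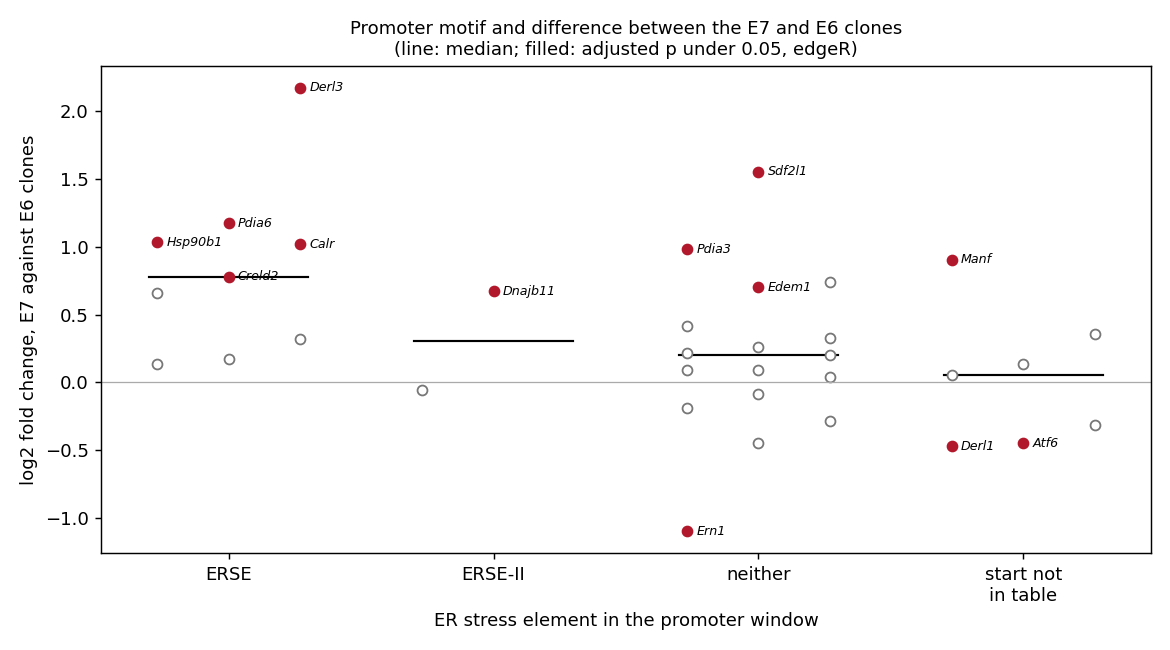
Log2 fold change of the E7 against the E6 clones (vertical axis) for each of the 35 genes by the ER stress element in its promoter window (horizontal axis), with lines at the medians and filled points for an adjusted p under 0.05. The 9 genes with an ERSE are all above 0, with *Derl3* at 2.17 and *Syvn1* lowest at 0.14, whereas the 17 genes with neither element spread from -1.10 (*Ern1*) to 1.55 (*Sdf2l1*).

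A wider list of 97 secretory pathway and stress signalling genes outside the 35 was examined in the same fit, and 95 were tested. Only *Dad1*, a subunit of the oligosaccharyltransferase, passed in a clone against parental cells, and 1 of 95 compares with the 1.22% of all genes called in E7.1. *Dad1* was measured at 32.9, 28.97 and 30.6 normalized CPM for A20 parental, 63.7, 43.5 and 43.3 for E7.1, 38.4, 40.3 and 40.7 for E7.2, 38.8, 37.2 and 33.03 for E6.1 and 43.7, 38.6 and 40.9 for E6.2. All 12 clone libraries were above the parental ones, and the E7.1 value was 0.70 ± 0.15 on the log2 scale (adjusted p = 0.0398, edgeR). The call was lost in the fit of the 6 libraries compared and with any 1 of 10 libraries left out (adjusted p from 0.0546 to 0.205), and kept without replicate 1 of A20 parental, replicate 1 or 3 of E6.2, replicate 2 of E7.1 or replicate 3 of E7.2. Between the E7 and E6 clones 11 of the 95 passed, 7 higher and 4 lower, which is close to the 12.1% of all genes. Among these 11, chosen after their values were seen, was *Txndc5*, a thioredoxin-domain disulfide isomerase, which was higher in the E7 clones by 0.79 ± 0.15 (adjusted p = 0.00884) and was called in 23 of 23 alternative analyses. *Ppp1r15a* and *Trib3*, stress-induced genes downstream of Perk and Atf4, were lower at -1.26 ± 0.26 and -1.13 ± 0.31 (adjusted p = 0.0122 and 0.0319), although replicate 3 of E7.2 lay among the E6 values for both. They were called in 23 and 17 of 23 alternative analyses, and *Trib3* was lost with any 1 of 6 libraries left out (adjusted p from 0.0557 to 0.0851). In A20 parental, replicates 1, 2 and 3 were at 23.2, 67.3 and 64.0 CPM for *Ppp1r15a* and 42.0, 124 and 106 for *Trib3*. Replicate 1 thus lay within the E7.1 range for both genes. *Atf4* itself differed by -0.23 ± 0.16 and *Ddit3* by -0.58 ± 0.24, and neither passed the test (adjusted p = 0.332 and 0.121).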

How the data were processed

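RNA was measured by sequencing in 15 libraries of 5 lines, grouped by their labels, with 3 replicates each. According to the table headers and the submitters' processing notes, the authors aligned reads with HISAT and counted read pairs with featureCounts 1.5.0 on a GRCm38 annotation, without strand and without pairs that aligned at several places or touched several genes. The deposited values are raw counts per gene for 41480 features, of which 92 were spike-ins at 0 and were left out. Names were taken from GENCODE for 40254 of 41388 genes.

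Counts were tested in R 4.3.3 with edgeR 4.0.16 (filterByExpr, TMM, glmQLFit and glmQLFTest), with 13904 genes and all libraries in 1 fit and the line as the only factor. Each of 8 comparisons had its own Benjamini-Hochberg adjustment, and genes with an adjusted p under 0.05 were called, whatever their fold change. Fold changes are log2, and levels are TMM-normalized CPM. A level of 3 counts corresponded to 0.0751 to 0.118 CPM, which covers counting error only. P values measure the spread between passages of a line. The method was tested on simulated counts with changes in 200 genes placed in E7.1 only. In E7.1 against parental cells 150 of the 200 were called, with 11 unchanged genes. Between the E7 and E6 clones 95 of the 200 were called, with 8 unchanged genes, although only 1 clone was changed. The simulation held no libraries that stood apart as in the data, so it does not cover their part. No library was a copy of another.

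The members and lists were chosen with earlier results of these data known. Values in every library are given for *Hspa5, Xbp1, Ern1, Atf6* and *Eif2ak3*, for at most 12 members called in any comparison (by the smallest p among the 5 lines), for the 3 with the largest change in each clone and, of the wider list, for at most 8 genes called in a clone. *Creld2* was added to these after its values were seen.

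Alternatives were DESeq2 1.42.0's size factors and its test, no filter, the likelihood ratio test, the newer quasi-likelihood method, a replicate block, a fit of 6 libraries, a 2-fold threshold, and fits without single libraries or pairs of them. The fit without replicate 1 of A20 parental and E6.2 was added after the data were seen.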

Additional observations from a re-analysis of the deposited data

Results flagged for a closer look

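The 13 members called between the E7 and E6 clones are listed here because the 2 exon 7 clones and the 2 exon 6 clones differed in a direct test (edgeR quasi-likelihood test over all 13904 genes, 12.1% of which passed). On the log2 scale, the level in E7 was above that in E6 by 2.17 for *Derl3*, 1.55 for *Sdf2l1*, 1.17 for *Pdia6*, 1.03 for *Hsp90b1*, 1.02 for *Calr*, 0.98 for *Pdia3*, 0.90 for *Manf*, 0.78 for *Creld2*, 0.70 for *Edem1* and 0.67 for *Dnajb11*. The difference was -1.10 for *Ern1*, -0.47 for *Derl1* and -0.45 for *Atf6*. Over 23 alternative analyses, all 13 kept their direction in each, and *Derl3*, *Sdf2l1* and *Manf* were called in 23, *Pdia6* and *Atf6* in 21, *Edem1* in 20, *Pdia3* in 19, *Ern1* in 14, *Dnajb11* in 12, *Hsp90b1* in 11, *Derl1* and *Calr* in 9 and *Creld2* in 8.

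With 3 libraries per line, a library far from the others of its group was not tested.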

How the results depend on the processing

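In E7.2, E6.1 and E6.2 against A20 parental cells, and between E7.2 and E7.1, 0 members were called under every alternative run. In E7.1 against parental cells the count of 0 became 4 with no filter (1.38% of all genes called), 10 with DESeq2's test (8.32%), 8 with the likelihood ratio test (5.38%), 18 without replicate 3 of both E6.2 and E7.2 (15.2%) and 9 without replicate 1 of both A20 parental and E6.2 (8.83%), beside 1.22% in the analysis reported, and it ranged from 0 to 7 with single libraries left out (0.209% to 7.05% of all genes; 7 without replicate 1 of A20 parental, 6 without replicate 3 of E6.2 and 3 without replicate 3 of E7.2). Between the E7 and E6 clones the count of 13 became 20 without replicate 3 of both E6.2 and E7.2. It ranged from 3 to 18 with single libraries left out, when 2.77% to 26.8% of all genes were called. Between E6.2 and E6.1 the fit without the replicates 3 called 1 (*P4hb*, lower in E6.2) in place of 0. Of all genes it called 3.39% there, in place of 1.24%. Among the 5 lines the count of 4 became 11 with no filter (6.53% of all genes called), 14 with DESeq2's test (22.5%), 12 with the likelihood ratio test (17.6%), 19 without the replicates 3 (28.6%) and 7 without the replicates 1 (8.95%), beside 6.28%. It ranged from 0 to 14 with single libraries left out, when 2.45% to 20.2% of all genes were called. The median log2 fold change of the members in E6.1 was -0.0075 without the replicates 1 and ranged from -0.052 to -0.0073 with single libraries left out, beside -0.038. For the 95 genes tested of the wider list, the count in E6.1 was 1 with DESeq2's test, the likelihood ratio test, the fit without the replicates 3 and the fit of 6 libraries, in place of 0 (1.11%, 0.899%, 0.924% and 0.849% of all genes), and 0 to 1 with single libraries left out. In E6.2 it was 4, 1 and 3 with DESeq2's test, the likelihood ratio test and the fit without the replicates 3, in place of 0 (2.86%, 2.24% and 2.26% of all genes), and 0 to 3. In E7.1, under the shares of all genes given above, it was 2 with DESeq2's size factors (1.42%), 3 with no filter, 14 with DESeq2's test, 9 with the likelihood ratio test, 21 without the replicates 3, 14 without the replicates 1 and 0 with 6 libraries (1.29%), in place of 1, and 0 to 12. What moved these values was not tested.

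For the log2 fold changes of the 17 named members, 0 of the called values changed sign. Between the E7 and E6 clones 71 of 391 values lost their call and 1 gained one, and in E7.1 60 of 408 gained one. Members that passed in neither analysis changed sign in 1 (E7.1), 2 (E7.2), 30 (E6.1) and 37 (E6.2) of 408 values.

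Replicate numbers are shared between lines in the labels, but deviations of same-numbered clone and parental libraries correlated with r from -0.147 to 0.262, and the mean r over all same-numbered pairs was 0.0517 against -0.0237 for pairs with other numbers, so the numbers were not taken to pair the libraries. With a replicate block 11 members were called between the E7 and E6 clones (10.1% of all genes) and 2 among the 5 lines (5.23%). Without the block these counts were 13 (12.1%) and 4 (6.28%). In each clone against parental cells the fit with the block called 0 members (0.280% to 1.17% of all genes). Depth limits the low *Derl3* most, with 19 to 285 counts.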
